A study of Ictidomys tridecemlineatus with 15 samples.

Results

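Late torpor (LT) and interbout arousal (IBA) are the cold and the warm end of the rewarming that closes each torpor bout of a hibernating 13-lined ground squirrel. The 2 states were compared in the liver to obtain the net change in transcription over that rewarming, across every transcribed unit. The comparison used 5 of the 14 libraries with counts, in a series of 15 samples. LT replicates 1 and 3 came from animals that had been at low body temperature for most of the length of their previous torpor bout. IBA replicates 1, 2 and 3 came from animals that had warmed spontaneously and had been warm for a few hours. Each library was made from the liver of a different female squirrel, housed in the laboratory and tracked by its body temperature, and neither group received an agent or carried a genetic change. The animals' ages are not given in the labels. All LT animals were collected in the first of the collection seasons and all IBA animals in the third, so that state and season cannot be told apart by these 5 libraries alone.

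In torpor the heart, the respiration and the metabolism of a hibernator run at a small part of their warm rate and the body cools to near the temperature of the burrow. During an arousal the animal rewarms from its own fat and glycogen, with no food, and the liver takes up again the release of glucose, the synthesis of plasma proteins and the clearance of metabolites. In GRO-seq, global run-on sequencing, nuclei are isolated and polymerases already engaged on DNA extend their RNA with a labelled nucleotide, so that nascent transcripts can be captured. The run-on took place in vitro at the same temperature for all libraries, so the reads report how many polymerases were engaged along a gene and not how fast they moved in the animal. Values are CPM, counts scaled to a common library size with TMM normalization, and are thus shares of a library, so that a rise of some units goes with a smaller share of others, and the total output of a nucleus was not measured.

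Counts on the gene bodies amounted to 6374674 and 6516975 in the LT libraries and to between 3734769 and 6366886 in the IBA libraries. The 6324 units of the table comprised 4705 with a single gene and 1619 in which overlapping genes had been merged. In any of the 5 libraries at most 1 single-gene unit had 0 counts. Of 10 hepatocyte markers, 5 had a unit of their own (Apob, Ttr, Hnf4a, Cps1 and Tf), 3 more were inside merged units, and 3 of the 5 were called higher in IBA. The summed level of these 5 was 4511 to 6728 CPM in LT and 8082 to 12020 CPM in IBA. Of 7 endothelial markers 4 had a unit (Kdr, Stab1, Eng and Pecam1), with 148 to 161 CPM in LT and 228 to 258 CPM in IBA, and 0 of the 4 were called. Sox9 was the only one of 5 cholangiocyte markers with a unit, at 7.07 to 10.1 CPM in LT and 16.5 to 36 CPM in IBA. No marker of stellate, erythroid or lymphoid cells or of neutrophils had a unit, and of 8 Kupffer cell markers CD68 alone was present, inside a merged unit. In bulk liver, fewer cells of a type and less RNA per cell cannot be told apart, and the part of the endothelial share in the results was not tested.

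From LT to IBA, 385 single-gene units were called higher and 445 lower, together 17.6% of the 4705 tested (8.18% higher and 9.46% lower). A unit was called where edgeR's quasi-likelihood test gave a Benjamini-Hochberg adjusted p of 0.001 or less over all units, and all adjusted p-values below come from this test unless another is named. The median log2 fold change was 1.78 among the units called higher, or 3.42-fold, and -1.32 among those called lower, or 2.49-fold in the other direction. Changes of 4-fold or more were made by 158 of the higher and by 64 of the lower units, and changes of 8-fold or more by 53 and 8. The plot of change against level shows the same asymmetry, with a longer tail above 0 than below. In all 830 called units the LT and IBA libraries did not overlap in CPM, and the same held for 3496 units (74.3%) in all. The paper proposes that transcription fails to terminate on some genes in torpor and runs on past their ends. Reads of such polymerases may enter the LT counts of a unit, and their part in the calls was not tested.

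**Figure D1:**
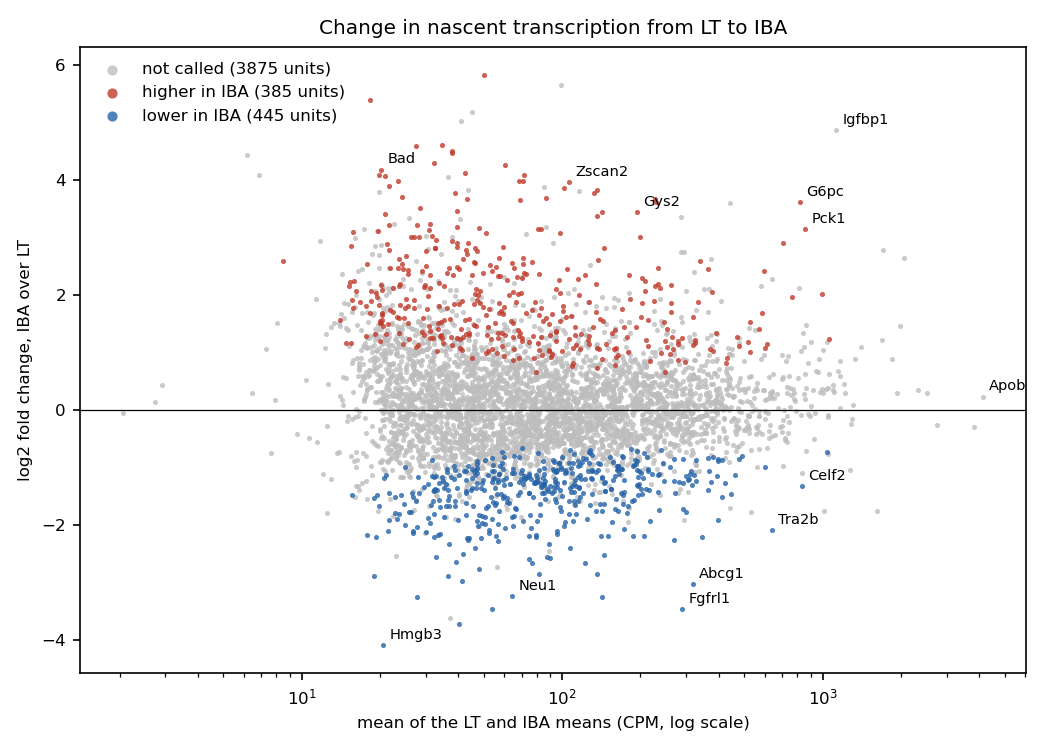
Change of each of the 4705 single-gene units from LT to IBA (vertical axis, log2 fold change, above 0 higher in IBA) against its level (horizontal axis, mean of the LT and IBA means in CPM, log scale). Red points are the 385 units called higher, blue points the 445 called lower and grey points the units not called. The rises reach further from 0 than the falls, and Igfbp1 and Apob, 2 of the units with most reads in IBA, were not called.

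The number of calls depended on the libraries. It was 180 without LT replicate 1 and 312 without LT replicate 3, where the other LT library stands alone and its spread is taken from the other states, and 449, 451 and 455 without IBA replicates 1, 2 and 3. With libraries scaled to their uniquely mapped reads in place of TMM, the median over all units moved from 0.088 to -0.095 and 266 units were called higher and 614 lower, against 385 and 445. The direction of all 830 called units was the same under that scaling. It could hardly be otherwise, as the smallest called changes, 0.67 upward and 0.65 downward on the log2 scale, exceeded that shift of the median. The difference between states exceeded that between animals: the median absolute log2 difference of a unit was 0.56 to 0.64 for the 6 pairs of an LT with an IBA library, 0.16 to 0.22 for the 3 pairs of IBA libraries and 0.21 for the LT pair.

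G6pc, the catalytic subunit of glucose-6-phosphatase and the last step of glucose release, was at 149.8 and 96.6 CPM in LT and 1719, 1319 and 1508 CPM in IBA. Every IBA library was far above both LT libraries (log2 fold change 3.62, SE 0.58, edgeR adjusted p = 0.000311), and the unit lies on chromosome 7, 19445810 to 19468774 of the HiC_Itri_2 genome. Pck1, phosphoenolpyruvate carboxykinase of gluconeogenesis, had 174 and 173 CPM in LT and 1081, 2053 and 1482 CPM in IBA, with the widest scatter in IBA (log2 fold change 3.15, SE 0.54, edgeR adjusted p = 0.000487). Slc2a2, the glucose transporter of the hepatocyte membrane, had 419.9 and 364 CPM in LT and 1665, 1443 and 1677 CPM in IBA (log2 fold change 2.02, SE 0.29, edgeR adjusted p = 0.00016). Neither gene's libraries overlapped between the states. Tat, tyrosine aminotransferase, which passes amino acid carbon towards glucose, had 235 and 95.7 CPM in LT and 1083, 1520.2 and 1119 CPM in IBA (log2 fold change 2.91, SE 0.52, edgeR adjusted p = 0.000685). These 4 genes were also among the 10 called units with the largest change in CPM, with Rbp4, Ttr, Pid1 and Bmpr2 as further rises and Tra2b and Celf2 as falls.

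Glycogen genes moved in both directions. Gys2, the liver glycogen synthase, had 32.7 and 32 CPM in LT and 497, 306 and 259 CPM in IBA and rose 10.9-fold (log2 fold change 3.45, SE 0.38, edgeR adjusted p = 2.54e-05). Ppp1r3c, a glycogen targeting subunit of protein phosphatase 1, rose 5.13-fold and Ugp2, which makes the UDP-glucose that glycogen synthase uses, 2.65-fold, and Khk, the fructokinase, rose 4.03-fold. Phkg2, the liver catalytic subunit of the kinase that activates glycogen phosphorylase, fell from 87.7 and 70.7 CPM in LT to between 21.9 and 28.7 CPM in IBA (log2 fold change -1.66, SE 0.25, edgeR adjusted p = 0.000194). The glycolytic enzymes Pgk1 and Gapdh were 3.52-fold and 2.76-fold lower in IBA, and so were Pdhb and Pdhx of the pyruvate dehydrogenase complex (2.88-fold and 1.87-fold) and Pdk1, a kinase that inhibits it (2.14-fold). Of the 34 members tested on the glucose and glycogen list, 7 rose, 6 fell and 21 were not called, with a median log2 fold change of 0.20 against 0.088 over all single-gene units. The share called was 38.2%, against 17.6% over all units. Pygl, the liver glycogen phosphorylase (0.89, adjusted p = 0.0571), Ppargc1a (-0.44, adjusted p = 0.263), a coactivator of the gluconeogenic genes, and Pdk4 (0.31, adjusted p = 0.74), a second inhibitor of pyruvate dehydrogenase, were among those not called.

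**Figure D2:**
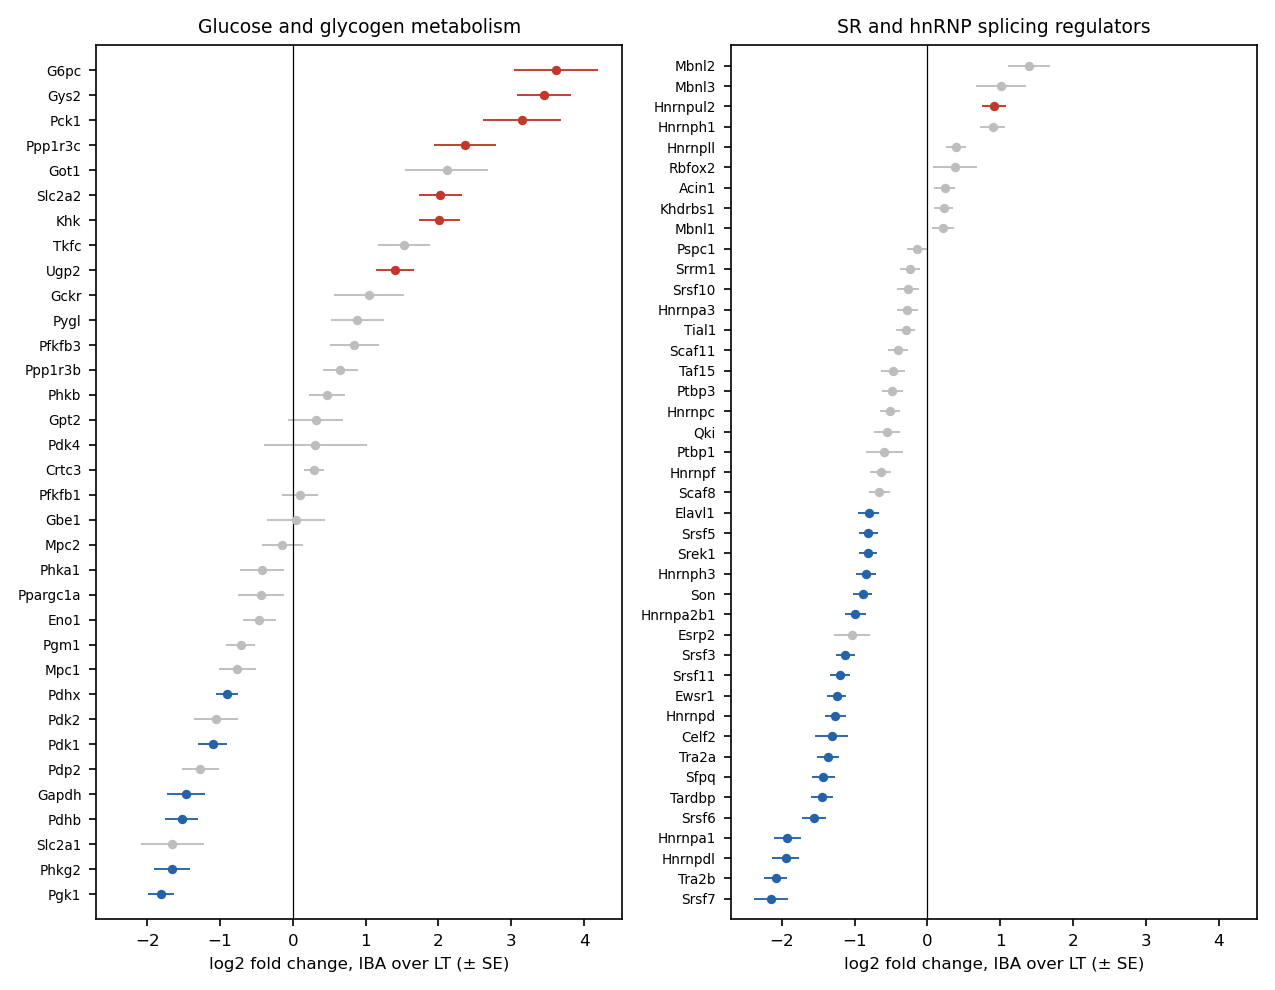
Log2 fold change from LT to IBA of the 34 tested glucose and glycogen genes (left) and the 42 tested SR and hnRNP splicing regulators (right), with the SE derived from the edgeR test statistic as bars. Red marks members called higher in IBA, blue those called lower and grey those not called; on the left 7 rose and 6 fell, and on the right 1 rose and 19 fell.

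Of the 10 named genes with the largest rise, G6pc was the one with the most reads, and most others had few reads in LT. Bad, a cell death promoter of the BCL2 family, had 1.81 and 2.36 CPM in LT and 32.7, 43.9 and 38.3 CPM in IBA (log2 fold change 4.19, SE 0.50, edgeR adjusted p = 4.46e-05). Hdc, which makes histamine from histidine, had 2.57 and 1.77 CPM in LT and 43.8, 32.6 and 35.9 CPM in IBA (log2 fold change 4.10, SE 0.52, edgeR adjusted p = 6.5e-05). For both, each IBA library was over 10 times the higher LT library. Adcy1, an adenylyl cyclase, rose 15.8-fold from 7.71 and 9.13 CPM in LT, and Zscan2, a zinc finger protein, 15.7-fold from 13 and 12.4 CPM. Cldn1, a tight junction protein, had 21.3 and 14.9 CPM in LT and 370.3, 171 and 203 CPM in IBA, so that IBA replicate 1 was at about the sum of the other IBA libraries (log2 fold change 3.77, SE 0.48, edgeR adjusted p = 6.66e-05). The potassium channel genes Kcnab1 and Kcnj8 rose 13.8-fold and 13-fold, Hmcn2, an extracellular matrix protein, 12.8-fold, and CUNH16orf45, an open reading frame with no assigned name, 13.1-fold. The units of Bad, Hdc and Adcy1 overlap another unit on the opposite strand, and whether the counting kept strands apart is not given in the sources used here.

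**Figure D3:**
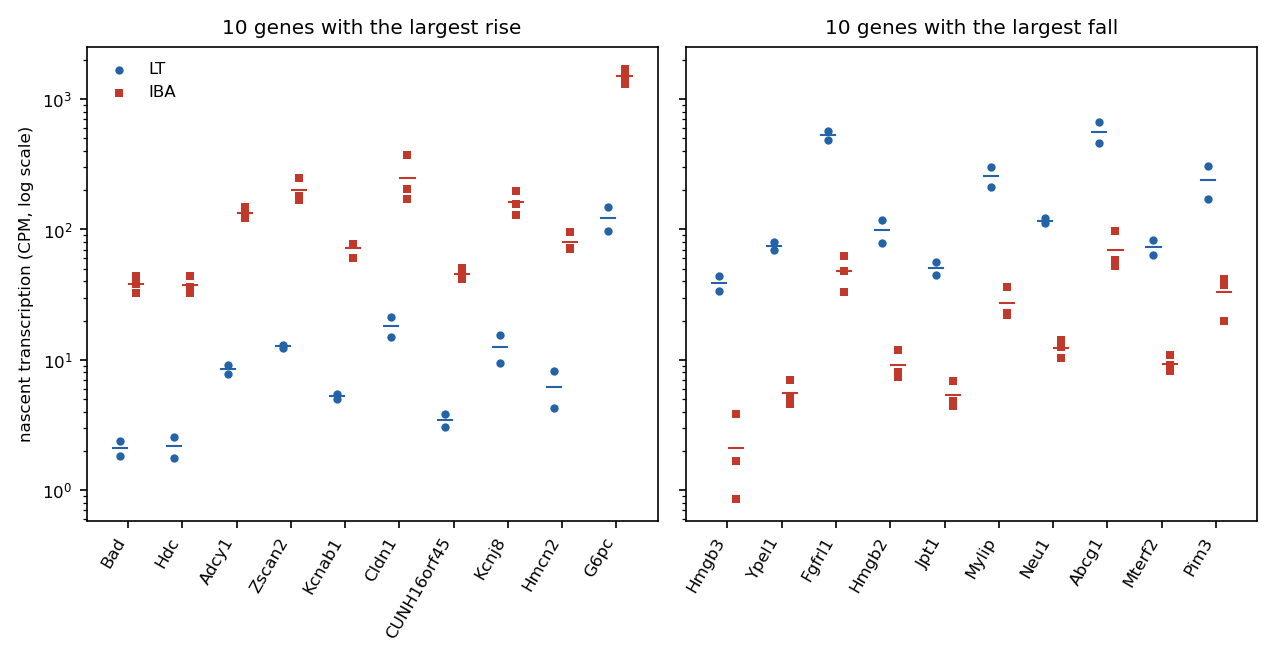
Level of the 10 named genes with the largest rise (left) and the 10 with the largest fall (right) in each library, in CPM on a log scale. Blue circles are the 2 LT and red squares the 3 IBA libraries, and the short lines are group means. The 20 genes were picked among called units whose states do not overlap, and the means of most differ by more than 10-fold.

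Of the 40 genes on the fatty acid oxidation and ketogenesis list 6 rose and 2 fell, 20% called against 17.6% over all units. Fabp1, the liver fatty acid binding protein, had 18.3 and 29.6 CPM in LT and 165, 367 and 253 CPM in IBA (log2 fold change 3.45, SE 0.59, edgeR adjusted p = 0.000481). Crot, which moves fatty acids out of peroxisomes as carnitine esters, had 95.2 and 129.8 CPM in LT and 552, 601 and 692 CPM in IBA (log2 fold change 2.45, SE 0.42, edgeR adjusted p = 0.000524), with 0 overlap between the states. Eci2, an enoyl-CoA isomerase, rose 6.03-fold, Bdh1, which interconverts the ketone bodies, 4.73-fold, and Scp2, a peroxisomal thiolase and lipid carrier, 2.89-fold. Mlycd, which removes the malonyl-CoA that blocks fatty acid entry into mitochondria, and Acox3 fell 2.92-fold and 2.45-fold. The median of the list was 0.071, close to the 0.088 over all units and below 0 with libraries scaled to mapped reads, where 5 members were called higher and 4 lower.

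In the synthesis and transport of lipids the calls also went both ways. Fads1, a fatty acid desaturase, rose 5.83-fold and Sc5d, a sterol desaturase, 2.57-fold. Mylip, the ubiquitin ligase that marks the LDL receptor for degradation, fell, with 303 and 212 CPM in LT and 22.2, 36.2 and 23 CPM in IBA (log2 fold change -3.24, SE 0.47, edgeR adjusted p = 0.000158). Npc2, a lysosomal cholesterol carrier, fell 4-fold. Fasn, the fatty acid synthase, was lower in IBA (log2 fold change -1.91, SE 0.40, edgeR adjusted p = 0.00188) but did not pass the threshold. Of 28 genes on this list 2 rose and 3 fell, 17.9% called and thus close to the 17.6% over all units (median -0.057). Among 21 lipoprotein genes, 4 rose, among them Apom, Apoh and Abcg5 (4.62-fold, 4.19-fold and 3.6-fold), while Abcg1, a cholesterol exporter, fell from 670.1 and 459 CPM in LT to between 52.9 and 97.6 CPM in IBA (log2 fold change -3.02, SE 0.52, edgeR adjusted p = 0.000496). The share called among these 21 genes was 23.8%, against 17.6% over all units. Apob, with the most reads of any single-gene unit in 3 of the 5 libraries, was not called (0.24, adjusted p = 0.426). Among 18 bile acid genes 4 rose and 0 fell, 22.2% called against 17.6% over all units. The rises were led by the uptake transporter Slc10a1 (84.2 and 52.3 CPM in LT and 402, 314 and 293 CPM in IBA). The unit of Slc10a1 lies within that of the splicing regulator Srsf5 on the opposite strand.

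Plasma protein genes had more rises than falls. Ttr, transthyretin, had 231 and 145 CPM in LT and 1071, 825 and 1126 CPM in IBA (log2 fold change 2.42, SE 0.33, edgeR adjusted p = 0.000117), and Rbp4, its partner in the transport of retinol, had 344 and 281 CPM in LT and 1295, 1289 and 1075 CPM in IBA (log2 fold change 1.96, SE 0.35, edgeR adjusted p = 0.000627). Both were at least 3 times higher in every IBA library than in either LT library. The unit of Tf, transferrin, rose 2.55-fold, and the merged unit TF:Srprb, which held more of the reads, went from a mean of 1113 CPM in LT to 7151 CPM in IBA (log2 fold change 2.68, edgeR adjusted p = 0.0001). The unit of Itih2, an inter-alpha-trypsin inhibitor chain, rose 2.32-fold. Serpinf1, a secreted serpin, fell from 71.3 and 38 CPM in LT to between 15.6 and 18.2 CPM in IBA (log2 fold change -1.67, SE 0.27, edgeR adjusted p = 0.00035). The list of acute phase and plasma carrier proteins had 4 rises and 1 fall among 18 tested members. Its share called was 27.8%, against 17.6% over all units, and its median of 1.21 was the highest of the 38 lists. With season as a further term its median was 0.33, with 1 member called. A2m, alpha-2-macroglobulin, had 519 and 348 CPM in LT and 5767, 1413 and 1771 CPM in IBA, and Serpina7, thyroxine-binding globulin, had 13.6 and 8.1 CPM in LT and 223, 98.2 and 159 CPM in IBA. Neither was called (log2 fold changes 2.78 and 3.88, adjusted p = 0.00499 and 0.00113), and the IBA libraries of A2m spread over 4-fold. In complement 3 of 14 members rose (Cfi, Masp1 and Cd59, 3.08-fold, 2.74-fold and 2.46-fold; median 1.08). In coagulation 2 of 16 rose, plasminogen (Plg, 2.24-fold) and Mcfd2 (1.83-fold), part of the receptor that exports coagulation factors from the endoplasmic reticulum, with a median of 0.74. Neither list had a fall. The shares called were 21.4% in complement and 12.5% in coagulation, against 17.6% over all units. With libraries scaled to mapped reads 1 member of each was called higher.

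Of 21 transcription factors of the hepatocyte 7 rose and 2 fell (median 1.08), where 8.18% and 9.46% of all units did, but with libraries scaled to mapped reads 3 were called higher and 2 lower. Xbp1, a factor of secretory capacity, had 96.9 and 92.4 CPM in LT and 467, 399 and 417 CPM in IBA (log2 fold change 2.18, SE 0.41, edgeR adjusted p = 0.000846). Onecut1 had 73.2 and 93.8 CPM in LT and 339.6, 374 and 402 CPM in IBA (log2 fold change 2.16, SE 0.35, edgeR adjusted p = 0.000342), and Stat5b, which carries the growth hormone signal, rose 3.43-fold. Nr5a2 and Hnf4a, nuclear receptors that maintain the hepatocyte programme, rose 2.42-fold and 2.12-fold, with Onecut2 (2.28-fold) and Gata6 (2.09-fold). Atf5, a stress-induced factor, fell 2.84-fold. Thra, a thyroid hormone receptor, fell 2.6-fold. Of 20 drug metabolism enzymes UGT2A1, CYP2C8 and CYP2A7 rose (5.89-fold, 5.52-fold and 3.74-fold) and 0 fell, 15% called against 17.6% in all (median 1.01). These 3 belong to multigene families whose reads could be split between near-identical copies.

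Genes that respond quickly to growth factors and stress were divided. Dusp6, the phosphatase that switches off ERK, had 24.9 and 16.8 CPM in LT and 209, 148 and 172 CPM in IBA (log2 fold change 3.08, SE 0.33, edgeR adjusted p = 2.54e-05). Zfp36l2 and Zfp36l1, which direct the decay of AU-rich mRNAs, rose 8.88-fold and 5.59-fold. Further rises were Arrdc4, an arrestin domain protein (5.17-fold), Rnd3, a small GTP-binding protein (3.65-fold), Trib1, a pseudokinase (3.18-fold), Nfkbia, the inhibitor of NF-kappa-B (2.85-fold), and Dusp16 (1.86-fold). Ppp1r15a, which restores translation after stress, fell from 101 and 66.4 CPM in LT to between 8.81 and 14.8 CPM in IBA (log2 fold change -2.76, SE 0.36, edgeR adjusted p = 7.39e-05), and Csrnp1 fell 4.8-fold. Together 8 of 35 members rose and 2 fell, 28.6% called against 17.6% over all units, with a median of 0.89. Egr1 had 4.53 and 0.295 CPM in LT and 64.5, 58.7 and 114 CPM in IBA, no overlap and the largest difference on the list, but with 0.295 CPM in LT replicate 3 its error was wide (log2 fold change 5.04, SE 1.07, edgeR adjusted p = 0.00196). Arrdc3 (3.61, adjusted p = 0.00196) was likewise above the threshold.

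Insulin and growth factor signalling had 3 rises and 1 fall among 27 members, 14.8% called against 17.6% over all units. Grb14, an adaptor that inhibits the insulin receptor, had 149.5 and 134 CPM in LT and 588, 466 and 514 CPM in IBA (log2 fold change 1.88, SE 0.20, edgeR adjusted p = 2.39e-05). Deptor, an inhibitor of mTOR, rose 2.73-fold, and Eif4ebp2, a repressor of cap-dependent translation, fell 2.61-fold. Igfbp1, which binds IGF1 in plasma, had 94.6 and 54.2 CPM in LT and 3222, 1477 and 1837 CPM in IBA. Its mean in IBA was the highest per unit length of all single-gene units, and it was not called (log2 fold change 4.87, SE 0.99, edgeR adjusted p = 0.00152). Foxo1, the factor that insulin excludes from the nucleus, had 1748 and 1370.0 CPM in LT and 446, 459 and 484 CPM in IBA and was not called either (log2 fold change -1.75, SE 0.35, edgeR adjusted p = 0.00147).

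Among the units higher in LT, 2 high mobility group genes were among the 10 with the largest change. Hmgb3, a chromatin protein that bends DNA, had 44 and 33.9 CPM in LT and 0.853, 1.67 and 3.83 CPM in IBA (log2 fold change -4.08, SE 0.47, edgeR adjusted p = 3.81e-05), and its relative Hmgb2 had 119 and 78.7 CPM in LT and 11.9, 7.32 and 7.98 CPM in IBA (log2 fold change -3.46, SE 0.37, edgeR adjusted p = 2.33e-05). Both LT libraries exceeded every IBA library by a factor of 6 or more. Ypel1, a small conserved nuclear protein, had 80.3 and 69.2 CPM in LT and 5.12, 4.6 and 7.02 CPM in IBA (log2 fold change -3.72, SE 0.44, edgeR adjusted p = 4.51e-05). Fgfrl1, a receptor for fibroblast growth factors without a kinase domain, fell from 573 and 485 CPM in LT to between 33 and 62.9 CPM, 11-fold. Neu1, the lysosomal sialidase, had 122 and 111 CPM in LT and 10.2, 12.5 and 14 CPM in IBA, and its error was the smallest of the 10 (log2 fold change -3.23, SE 0.19, edgeR adjusted p = 3.13e-06). The units of Ypel1 and Fgfrl1 overlap another unit on the opposite strand. Jpt1, Mterf2, a factor of mitochondrial transcription, and Pim3, a growth-promoting kinase, fell 9.53-fold, 7.84-fold and 7.21-fold.

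Splicing regulators were the list with the most calls for its size of the 38 lists examined. Of 42 SR and hnRNP genes tested, 19 fell from LT to IBA and 1 rose, Hnrnpul2 at 1.88-fold (median -0.65). The share called was 47.6%, against 17.6% over all units. Tra2b, which promotes exon inclusion, had 1127 and 943 CPM in LT and 245, 229.9 and 256 CPM in IBA (log2 fold change -2.09, SE 0.16, edgeR adjusted p = 6.8e-06), and its error was small beside the change. Srsf7 had 193 and 118 CPM in LT and 29.8, 38 and 37 CPM in IBA (log2 fold change -2.15, SE 0.23, edgeR adjusted p = 2.3e-05). Hnrnpdl, Hnrnpa1 and Srsf6 fell 3.86-fold, 3.8-fold and 2.95-fold. Srsf5, one of the mildest, had 449.9 and 518 CPM in LT and 299, 252 and 277 CPM in IBA (log2 fold change -0.81, SE 0.13, edgeR adjusted p = 0.000366), still without overlap. Celf2, a regulator with a unit of 506 kb, had 1144 and 1238 CPM in LT and 422, 487 and 524 CPM in IBA (log2 fold change -1.32, SE 0.23, edgeR adjusted p = 0.0005). Mbnl2 (1.40, adjusted p = 0.00189) and Hnrnph1 (0.89, adjusted p = 0.00119) lay on the other side of 0 and were not called.

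Calls in other RNA processing lists were mostly falls. Of 46 spliceosome core genes 10 fell, among them Prpf19 (2.81-fold) and Snrpb2 (2.34-fold), and 2 rose, Lsm4 (3.04-fold) and Snrpc (2.44-fold), with a median of -0.42. Of 16 RBM genes 5 fell, led by Rbm10 and Rbm22 (2.53-fold and 2.28-fold), and Rbm12 rose 1.66-fold, while the median of the list was 0.065. The shares called were 26.1% in the spliceosome core and 37.5% in the RBM list, against 17.6% over all units. In cleavage, polyadenylation and termination 5 of 25 fell and 0 rose, 20% called against 17.6% over all units (median -0.50). The largest falls there were of Ttf2, which releases polymerase II from DNA (3.48-fold), and Bard1, better known for DNA repair (2.44-fold), and Cpsf6 of the cleavage complex itself fell 1.63-fold. Among 14 genes of RNA editing and m6A, Ythdc1, a nuclear reader of m6A, fell 2.36-fold, Ythdf2 2.13-fold and 3 more fell, whereas Adat1, a tRNA deaminase, rose 3.43-fold. Of the 14 genes 42.9% were called. The 6 splicing kinases tested had a median of -0.32 and did not reach the threshold. By contrast 1 rise (Cdk19, 3.02-fold) and 1 fall (Ctr9, 1.74-fold) were called among 41 genes of polymerase II, Mediator and elongation, a smaller share than the 17.6% over all units.

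Chromatin proteins had 9 falls and 3 rises among 73 members, 16.4% called and thus no more than the 17.6% over all units. Beside the HMG genes, Cbx2 of the Polycomb repressor fell 2.79-fold, and the acetyltransferases Kat7, Kat5 and Kat8 fell 2.1-fold, 2.03-fold and 1.97-fold. Setdb1, a histone methyltransferase of silent chromatin, had 6.8 and 7.66 CPM in LT and 33.2, 37.2 and 28.6 CPM in IBA (log2 fold change 2.19, SE 0.31, edgeR adjusted p = 0.000132), and Baz1a rose 2.33-fold.

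Calls among genes that make, fold and remove proteins were mostly falls. All 6 calls among 24 proteasome genes were falls, 25% called against 17.6% over all units (median -0.36). Psmb3, a subunit of the proteolytic core, had 117 and 128 CPM in LT and 22.2, 30.7 and 35.4 CPM in IBA (log2 fold change -2.05, SE 0.23, edgeR adjusted p = 3.1e-05), and Psmc1, an ATPase of its cap, fell 3.14-fold. In the large ubiquitin list 14 of 133 fell, led by Rnf168, a ligase of the DNA damage response (149 and 149 CPM in LT and 29, 29.1 and 30.8 CPM in IBA, log2 fold change -2.33, SE 0.18, edgeR adjusted p = 6.8e-06), and 6 rose, led by Rnf144a (3.81-fold), which together made 15% and was below the 17.6% over all units. Of 23 translation factors 6 fell and 0 rose, 26.1% called, with Eif3f, Eif5a and Eef1a1 at 2.59-fold, 2.48-fold and 2.41-fold. The chaperone list had 7 falls and 1 rise among 45, 17.8% called and thus close to the share over all units (median -0.39). Hsp90aa1, the inducible HSP90, had 133 and 128 CPM in LT and 28.1, 26.1 and 32.6 CPM in IBA (log2 fold change -2.17, SE 0.27, edgeR adjusted p = 5.98e-05), and Hsf2, a heat shock factor, fell 3.35-fold, whereas the co-chaperone Dnajb1 rose 2.52-fold. In the unfolded protein and integrated stress response, Ddit3, a death-promoting factor, fell 2.31-fold and Derl1 2.32-fold beside Atf5 and Ppp1r15a, and Pdia5 rose 2.32-fold with Xbp1, 4 falls and 2 rises of 32. The share called on that list, 18.8%, was also close to that over all units. Hspa5, the main chaperone of the endoplasmic reticulum, was not called (-1.48, adjusted p = 0.00791).

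Of 30 cytosolic ribosomal protein genes 6 rose and 5 fell, a balance that depended on the scaling, with 3 called higher and 7 lower when libraries were scaled to mapped reads. With TMM the share called was 36.7%, against 17.6% over all units. Rps7 had 5.14 and 7.95 CPM in LT and 19.3, 24.7 and 30 CPM in IBA (log2 fold change 1.92, SE 0.33, edgeR adjusted p = 0.000535), and Rpl7, Rps27a, Rpl31 and Rps26 rose 3.57-fold, 2.94-fold, 2.49-fold and 2.27-fold. Rpl34 had 191 and 162 CPM in LT and 51.2, 52.3 and 48.1 CPM in IBA (log2 fold change -1.81, SE 0.19, edgeR adjusted p = 2.09e-05), and Rpl15, Rplp1, Rpl9 and Rpl37a fell 3.24-fold, 3.07-fold, 2.71-fold and 2.63-fold. These genes have many processed copies in mammalian genomes, so that reads may be shared with them. Of 12 mitochondrial ribosomal proteins Mrpl14 alone was called, at 6.2 and 7.51 CPM in LT and 52.3, 63.5 and 53.3 CPM in IBA (log2 fold change 3.04, SE 0.29, edgeR adjusted p = 1.42e-05). That made 8.33% of the list.

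Among mitochondrial genes 6 of 28 oxidative phosphorylation genes fell and 1 rose, 25% called against 17.6% over all units (median -0.58). Atp5e of the ATP synthase had 65.5 and 67.2 CPM in LT and 19, 17.6 and 20 CPM in IBA (log2 fold change -1.81, SE 0.21, edgeR adjusted p = 3.57e-05), Ndufa10 of complex I fell 3.07-fold, and Ndufb9 of the same complex rose 2.87-fold. The mitochondrial carriers Slc25a29, Slc25a38 and Slc25a4, the last of which exchanges ATP for ADP, fell 5.84-fold, 4.62-fold and 4.14-fold, and Slc25a27, an uncoupling protein, rose 5.78-fold. In the lysosome and autophagy list 10 of 54 fell beside 3 rises, 24.1% called. Gabarapl2, a protein of the autophagosome membrane, fell 4.02-fold next to Neu1 and Npc2, and Atg4c and Atg3, which process and attach proteins of that family, rose 3.48-fold and 2.35-fold. Atp6v1b2, a V-ATPase subunit, had 217 and 149 CPM in LT and 102, 94.1 and 109 CPM in IBA and was not called (-0.85, adjusted p = 0.00139).

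Of 51 amino acid and urea cycle genes 4 rose and 5 fell (median 0.44), the same 17.6% called as over all units. Tat and Acmsd, of tyrosine and tryptophan breakdown, rose 7.5-fold and 7.48-fold, and Glud1, glutamate dehydrogenase, 2.43-fold. The falls were of Ivd, Mccc2, Bckdhb and Pcca, which act in the breakdown of branched-chain amino acids or of the propionyl-CoA from it (3.33-fold, 2.71-fold, 2.45-fold and 1.66-fold), and of Aass of lysine breakdown (3.75-fold). Cps1, the entry enzyme of the urea cycle, had 1418 and 673 CPM in LT and 4059.6, 1957 and 2702 CPM in IBA and was not called (1.47, adjusted p = 0.0897). On the antioxidant, iron and heme list, Cpox and Alas1 of heme synthesis rose 5.23-fold and 2.24-fold and Sod1 2.97-fold, while Pgd and Tkt of the pentose phosphate pathway, Sod2 and Fech fell 3.91-fold, 2.43-fold, 2.33-fold and 2.03-fold. Bmpr2, a receptor in the control of hepcidin, rose 3.23-fold, so that 5 of 32 rose, with Tf, and 4 fell, against 2 called higher and 8 lower with libraries scaled to mapped reads. With TMM 28.1% of the list was called, against 17.6% over all units.

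The circadian clock list had the lowest median of all, -0.96, with 4 falls and 0 rises among 13 members. Of the 13 members 30.8% were called, against 17.6% over all units. Per2, a repressor of the clock, had 236 and 228 CPM in LT and 68.5, 44.1 and 40.6 CPM in IBA (log2 fold change -2.19, SE 0.26, edgeR adjusted p = 4.39e-05), and Cry2, its partner, had 347 and 332 CPM in LT and 95.5, 58.7 and 69 CPM in IBA (log2 fold change -2.19, SE 0.27, edgeR adjusted p = 5.74e-05). Csnk1d and Csnk1a1, kinases that act on PER proteins, fell 2.78-fold and 1.74-fold. Nr1d1 had 136 and 165 CPM in LT and 11.9, 53.1 and 17.4 CPM in IBA and was not called (-2.44, adjusted p = 0.00546), and IBA replicate 2 was over 4 times IBA replicate 1. The time of day of collection is not given in the labels, and its part in these values was not tested.

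Smaller sets of calls came from the remaining lists. The cell cycle and p53 list and the solute carriers outside the mitochondrion had 14.3% and 11.25% called, below the 17.6% over all units. The actin list had 22.9% called. In the actin list 2 rose, with Rnd3 at 3.65-fold, and 6 of 35 fell, among them Cfl2, which severs actin filaments (3.54-fold), and Krt8, a keratin (2.4-fold). Wee1, which holds cells before mitosis, Tp53inp2 and E2f6 fell 4.51-fold, 3.35-fold and 1.85-fold, the 3 calls of 21 cell cycle and p53 genes. Among 80 solute carriers outside the mitochondrion 5 rose, with Slc10a1 and Slc3a2, a subunit of amino acid exchangers (4.13-fold), at the top. The 4 falls there included 3 of the zinc exporter family, Slc30a2, Slc30a1 and Slc30a4 (4.63-fold, 3.09-fold and 2.31-fold). Zinc finger genes were called 8 times higher and 8 times lower among 92, close to the shares over all units, with Znf189 (5.52-fold) rising and Zbtb43 and Znf672 (3.37-fold and 3.07-fold) falling.

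**Figure D4:**
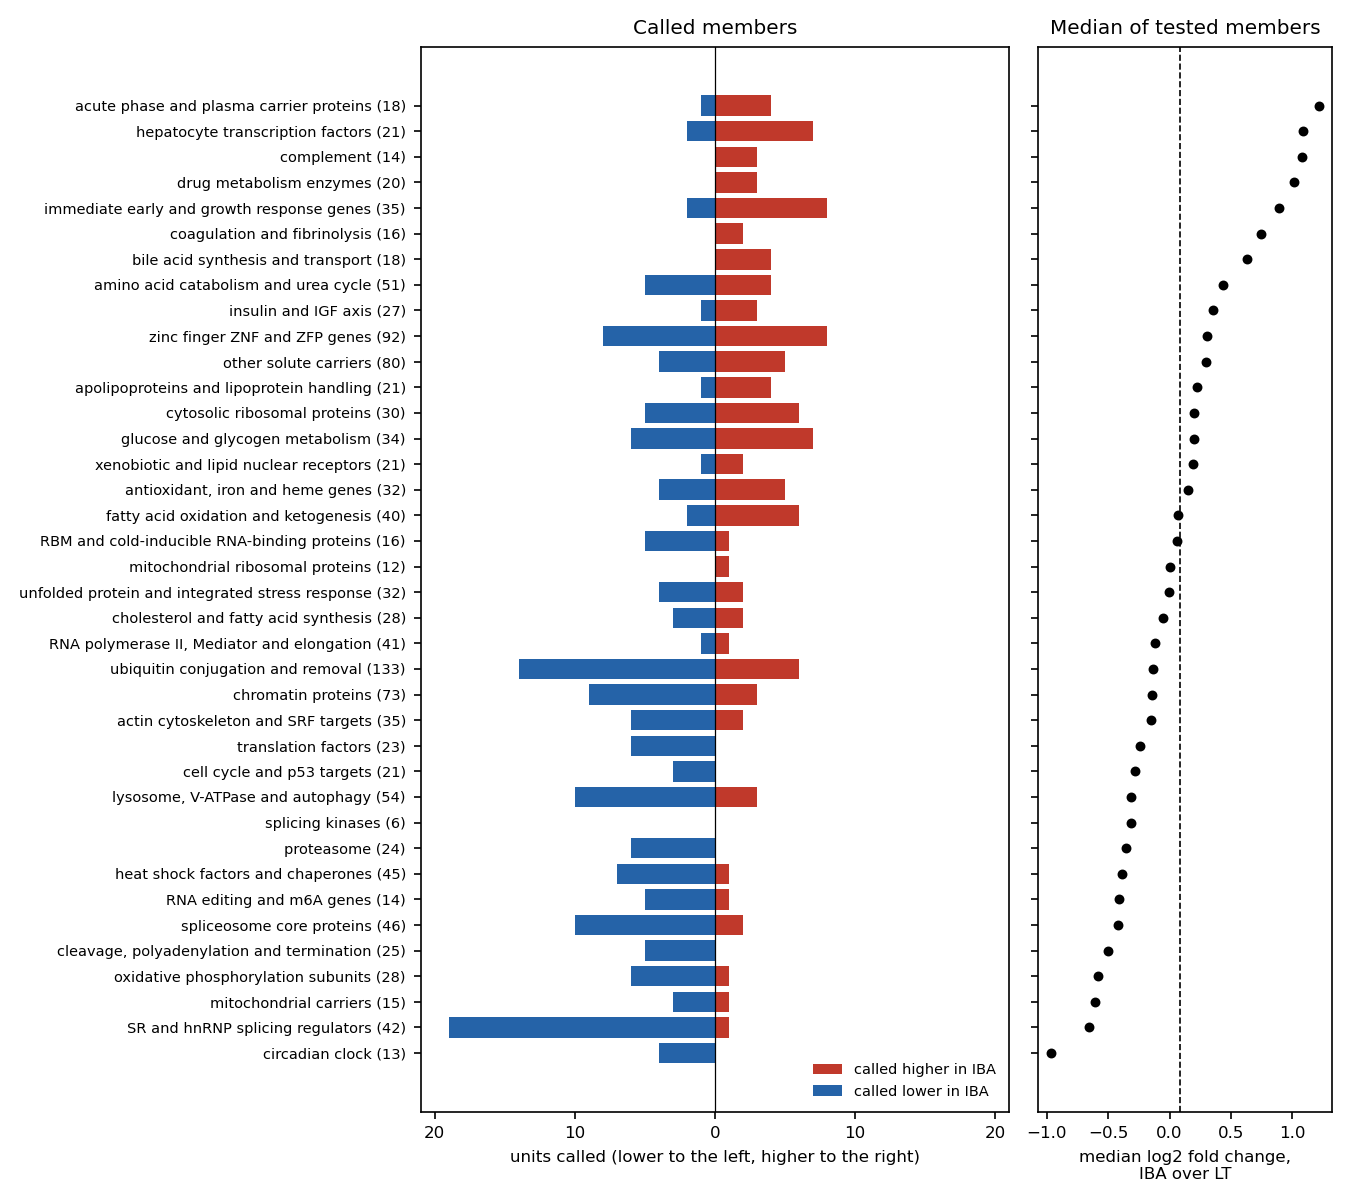
Called members of the 38 gene lists (left, units called higher in IBA to the right of 0 in red and units called lower to the left in blue; the number of tested members follows each name) and the median log2 fold change of all tested members (right), with the median over all single-gene units, 0.088, as a dashed line. The lists are ordered by their median, from the circadian clock at the bottom to acute phase and plasma carrier proteins at the top.

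Per unit length, different genes led in the 2 states. In IBA the highest levels were those of Igfbp1 (265 CPM per kb), Selenop, a selenium carrier of plasma (215), Pck1 (198), Apob (81.5) and Rbp4 (72.4 CPM per kb). In LT they were those of Apob (69.1 CPM per kb), Ddit3 (46.9), Selenop (34.3), and, after a tRNA unit, Hnrnpa2b1 (33.9) and Atf5 (33.6 CPM per kb). The 10 highest units of each state shared 3 units. The 10 single-gene units with the most reads took 2.57% and 2.46% of all counts in LT replicates 1 and 3 and 3.62%, 2.60% and 2.70% in the IBA libraries. The means differed by 0.46 percentage points (two-sided exact permutation test over the 5 libraries, p = 0.2, where 0.1 is the smallest p that 2 against 3 allow), and by 0.14 points without IBA replicate 1.

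The change varied with the length of the unit. Units under 10 kb had a median log2 fold change of 0.59, with 60 called higher and 21 lower of 378. Units of 10 to 50 kb, the most frequent class, had a median of -0.074 and 210 calls higher against 358 lower of 2551. Between 50 and 200 kb the median was 0.15 (103 higher and 63 lower of 1505), and at 200 kb or more 0.31 (12 higher and 3 lower of 271). The shares called were 21.4%, 22.3%, 11% and 5.54% from the shortest to the longest class, against 17.6% over all units. Shorter units had fewer reads: the median level under 10 kb was 22.4 CPM in LT and 29.3 CPM in IBA, against 55.7 and 51.9 CPM at 10 to 50 kb.

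Units without a gene symbol made up 482 of the 4705, and 111 of them were called, 86 higher and 25 lower. Over all 4705 units 830 were called (17.6%), 385 higher and 445 lower. The 2 with the largest rise were G8002 (1.66 and 1.77 CPM in LT and 102, 110.2 and 82.9 CPM in IBA; log2 fold change 5.82, SE 0.54, edgeR adjusted p = 1.27e-05) and G25220 (1.06 and 0.589 CPM in LT and 44.3, 38.7 and 24.6 CPM in IBA; log2 fold change 5.41, SE 0.79, edgeR adjusted p = 0.000169). The 2 with the largest fall were PPP3R1_like (33.6 and 32.8 CPM in LT and 6.82, 3.34 and 3.67 CPM in IBA; log2 fold change -2.88, SE 0.32, edgeR adjusted p = 3.13e-05) and LOC110597766 (72 and 56.1 CPM in LT and 7.67, 10.7 and 7.66 CPM in IBA; log2 fold change -2.88, SE 0.39, edgeR adjusted p = 9.97e-05). All 4 were picked among called units whose LT and IBA libraries do not overlap. Of all 4705 single-gene units 673 overlap another unit on the opposite strand, among them 69 of the 385 called higher and 58 of the 445 called lower. Their counts may thus include reads of the partner. Beside those already mentioned, this holds for Slc10a1, Apom, Xbp1, Zfp36l2, Rps27a, Rpl31, Crot, Ugp2, Sod1, Itih2, Ndufb9, Znf189 and Adat1 among the rises and for Srsf5, Csrnp1, Mlycd, Thra, Atf5, Hsf2, Psmc1, Gabarapl2, Tp53inp2, Slc30a2, Rpl9, Pdhb, Gapdh, Pcca, Ddit3, Eif5a and Eef1a1 among the falls, and for Hnrnph1, Mbnl2, Hspa5 and Nr1d1, which were not called. Merged units, whose reads cannot be divided among their genes, added 104 calls higher and 168 lower, and held 33.7% to 36.1% of the counts of a library.

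Whether the same units differ between cold and warm liver in other animals was examined in the 3 early torpor (ET) and the 3 summer active (SA) libraries, none of which enters the comparison of LT with IBA. The ET animals were cold and shortly into a torpor bout, in the second season of collection, and the SA animals were warm and outside the hibernation season, in the first and the third. From ET to SA 499 units were called higher and 549 lower (10.6% and 11.7%) in the model over all 14 libraries, and 95 in all when ET and SA were fitted alone. Of the 385 units called higher in IBA, 373 were also higher in SA than in ET, 265 of them past the threshold, and 12 were lower, 1 of them past it. Of the 445 called lower in IBA, 439 were lower in SA as well, 332 of them past the threshold, and 6 were higher. Over all single-gene units 51.6% were higher in SA. The median log2 fold changes from ET to SA were 1.36 and -1.14 in the 2 sets, smaller in size than the 1.78 and -1.32 that chose them. Celf2 (-1.32 from LT to IBA, 0.018 from ET to SA), Tkt (-1.28 and 0.015), Crot (2.45 and -0.093) and Nfkbia (1.51 and -0.29) were among the 18 units whose sign differed. These values come from a model that estimates the spread in all 14 libraries together, and are given without a test.

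**Figure D5:**
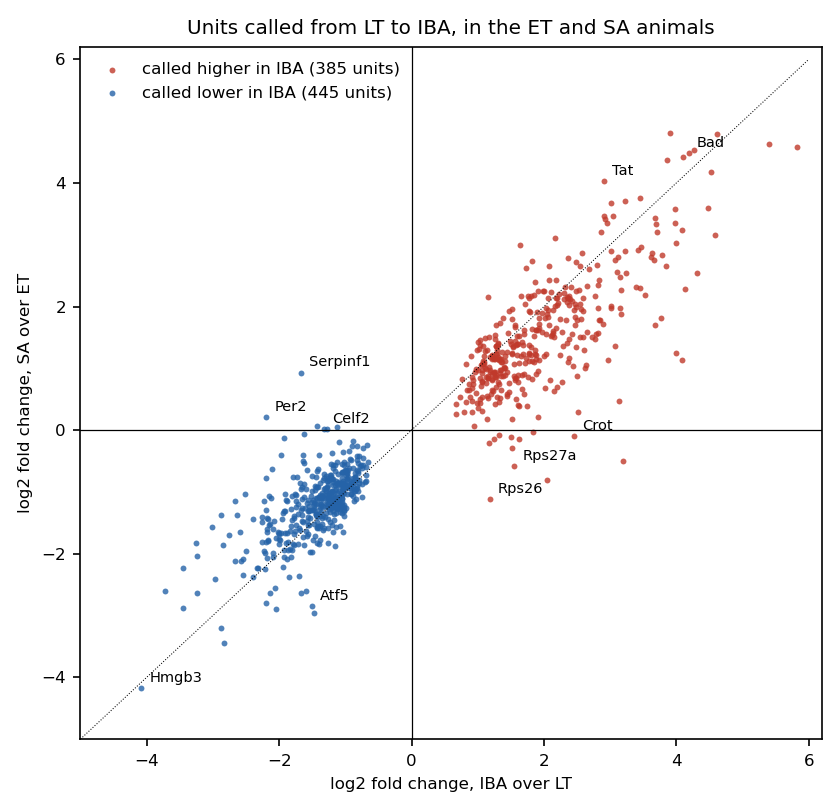
Log2 fold change from LT to IBA (horizontal axis) and from ET to SA (vertical axis) of the 830 units called from LT to IBA, red where called higher in IBA and blue where called lower. The dotted line marks equal changes. Of the 830 units 373 lie above 0 on both axes and 439 below 0 on both, and those that do not include Per2, Serpinf1, Crot and Rps26.

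Levels in the other states place the largest changes. G6pc averaged 179 ± 32.2 CPM in ET (SD, n = 3), 879 ± 238 in entrance into torpor (Ent; SD, n = 3) and 1243 ± 838 in SA (SD, n = 3). Hmgb3 averaged 50.4 ± 2.26 CPM in ET, 9.82 ± 5.45 in Ent and 2.7 ± 0.443 in SA (SD, n = 3 each). Tra2b averaged 1095 ± 159 CPM in ET, 384 ± 16.7 in Ent and 263 ± 37.2 in SA (SD, n = 3 each), and Per2 125 ± 20.2, 98.2 ± 25.1 and 144 ± 25.4 CPM in the same order (SD, n = 3 each). Thus the first 3 genes differed between ET and SA in the direction of LT and IBA, while Per2 did not: its change from ET to SA was 0.21 (edgeR adjusted p = 0.469).

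A test of whether the change from LT to IBA itself differs from that from ET to SA, added after the data had been seen, found 58 units (1.23%) at an adjusted p of 0.05 in edgeR and 0 at 0.001. At 0.001 DESeq2 gave 50, and 740 units had an unadjusted p of 0.05 or less in edgeR. Of the 58, 38 had the larger value from LT to IBA and 20 the smaller, and 40 had opposite signs in the 2 comparisons. 8 of them were cytosolic ribosomal protein genes, all with the larger value from LT to IBA, such as Rps27a (1.55 against -0.58), Rps26 (1.18 against -1.12) and Rpl7 (1.84 against -0.031). From ET to SA 0 of the 30 ribosomal protein genes rose and 12 fell (median -0.82). Of the 58 units 21 were under 10 kb long, and all 21 had the larger value from LT to IBA; over all units of that length the median from ET to SA was 0.038, against 0.59 from LT to IBA. With fewer libraries the count was between 1 (without LT replicate 1) and 83 (without SA replicate 2), and 35, 3, 4, 5, 7 and 9 without SA replicate 3, IBA replicates 2, 3 and 1 and ET replicates 2 and 3.

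Season could be set apart from state only through SA and Ent, whose animals came from the first and the third. In a fit over the SA, IBA, Ent and LT libraries with season beside state, all 385 units called higher kept a positive and all 445 called lower a negative log2 fold change, with medians of 1.85 and -1.35. However, 91 and 44 of them passed the threshold of 0.001 there, and over all single-gene units 98 were called higher and 44 lower. Tra2b (-2.03, edgeR adjusted p = 0.000454), Neu1 (-2.98, adjusted p = 0.000413) and Jpt1 (-3.72, adjusted p = 0.000454) passed it, as did Bad, Hdc, Adcy1, Zscan2 and Kcnab1 among the rises, whereas G6pc (3.99, adjusted p = 0.00425) and Pck1 (3.38, adjusted p = 0.00186) did not. Of the SR and hnRNP genes 3 were called lower in this fit, of the glucose and glycogen genes 2 higher and of the ribosomal protein genes 1 lower. None of the hepatocyte transcription factors was called, and no list had more than 5 calls in all. The medians of the acute phase and plasma carrier list and of complement were 0.33 and 0.45 here, against 1.21 and 1.08. Those of the hepatocyte transcription factors and the circadian clock were 1.02 and -0.94, against 1.08 and -0.96.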

How the data were processed

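GRO-seq libraries were prepared from nuclei of frozen liver. As described by the authors, reads were trimmed with cutadapt, aligned with BWA to the HiC_Itri_2 assembly and reduced to unique alignments, and deposited as raw counts per unit, from featureCounts. A unit is the body of an annotated gene without its promoter-proximal start, extended at its 3' end along continuous GRO-seq signal pooled over states, and overlapping genes were merged. Reads from polymerase that ran past the end of a gene in torpor can fall within extended units or neighbouring genes. They were not set apart here. Versions and the strand setting of the counting are not given in the sources used here. Since reads accrue along the whole unit, long units reach high counts, and levels were compared between genes only per kb. The deposited table holds 14 count columns, all assigned to samples by their labels, with 0 columns left unused. LT replicate 2, which the authors left out, was not analysed here.

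Counts of all 6324 units in all 14 libraries (5 states) were fitted with edgeR 4.0.16 in R 4.3.3 (TMM normalization, quasi-likelihood F test, state as the only term), so that the spread is shared over states. p-values were adjusted by the Benjamini-Hochberg method over all units. Units were called at an adjusted p of 0.001, as in the study's methods, and counted over the 4705 single-gene units. Fold changes are IBA over LT unless stated otherwise. The SE of a log2 fold change was derived from the test, as its absolute value divided by the square root of the F statistic. Replicates are different animals, and no 2 libraries agreed within sampling noise (chi-square per degree of freedom 13.6 or more for every pair within LT or IBA). The scripts were tested on simulated counts. Depth was 3734769 to 6516975 counts per library, and a unit at the median level of 23.5 CPM in LT among those called higher rests on fewer reads than one at 124 CPM among those called lower.

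The 38 gene lists and the genes named were chosen with earlier results of these data known. Named were, in each direction, the 10 most changed single-gene units with a symbol among called units without overlap and the 2 most changed called members of each list, then the 10 called units with the largest change in CPM, and 8 genes singled out by the study. Further members, and genes named as not called, were chosen after their values were seen. A name in the lists matched a unit by its symbol, and 4063 of the 4705 names are symbols or synonyms in RefSeq. Lists are described by counts and medians, without a set test. A few genes are not reported here. Promoter motifs and GC content were not analysed here, as no sequences were used. Alternatives were DESeq2 1.42.0, limma 3.58.1 (voom), other normalizations, a minimum of 10 counts, fits on fewer libraries, season or the replicate number as a further term and a threshold of 0.05.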

Additional observations from a re-analysis of the deposited data

Results flagged for a closer look

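In 58 of 4705 units the change from LT to IBA differed from that from ET to SA (adjusted p of 0.05 in edgeR's test of the difference, chosen after the data were seen). All 58 were below 0.05 in DESeq2 as well. DESeq2 refits the same counts and passed 229 units at 0.05, so this overlap is no independent support. In edgeR the count was 5, 3 and 4 without IBA replicates 1, 2 and 3. Of the 58 units, 27 were among the 830 called units. Differences are given as the log2 change from LT to IBA minus that from ET to SA. They were positive for the ribosomal protein genes Rps26 (2.30), Rps27a (2.13), Rpl7 (1.87) and Rps27 (1.27), for Rpp38 of ribonuclease P (1.57), the G protein subunit Gng5 (1.48) and Eepd1 (1.40). They were negative for Serpinf1 (-2.60), Per2 (-2.40), Edem2, which acts in the degradation of misfolded glycoproteins (-1.35), Scap, the escort of the sterol-sensing factors (-1.30), and Neu1 (-1.20), which was lower in the warm state in both comparisons (-3.23 and -2.04). LT and IBA differ from ET and SA in season of collection, position in the bout and time of year together, and which of these moves with the differences cannot be told apart. Groups of 2 or 3 libraries are too small for a test of single outlying libraries.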

How the results depend on the processing

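From LT to IBA 830 units were called. The count was 1515 with DESeq2, 142 with season as a covariate, 2386 at an adjusted p of 0.05 and 180 to 455 with 1 library left out, and 718 to 880 when normalization, the filter on low counts, the samples or limma-voom were changed, with 1102 once merged units were counted. The share of calls higher in IBA (46.4%) was 50.6% with DESeq2, 38.1% with total counts, 30.2% with mapped reads, 69.0% with season, 42.9% with single-gene units alone in the fit, 52.5% at 0.05 and 31.7% to 50.1% with 1 library left out. From ET to SA 1048 units were called, against 1726 with DESeq2, 95 with these groups alone, 2526 at 0.05 and 629 to 918 with 1 library left out. The share of called units that moved the same way from ET to SA (97.8%) was 96.5% with DESeq2, 98.98% with mapped reads and with the replicate block, 99.3% with season and 97.1% to 98.9% with 1 library left out. The test of the difference between both changes gave 229 units with DESeq2 in place of 58 and 1 to 83 with 1 library left out. The causes were not tested.

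With the replicate number as a block 587 units were called (282 higher and 305 lower). Same-numbered LT and IBA libraries correlated in their deviations from the group means at 0.18 and 0.080. Of the 26 same-numbered pairs of all states 6 exceeded 0.1 (range -0.28 to 0.27). Deviations from a mean of 2 or 3 libraries depend on each other, so whether the numbers mark a shared factor cannot be decided from them. Of the 137 genes named by rule 133 were called. None changed sign under an alternative, but the alternatives refit the same counts from which most of these genes were picked for their large changes. Of the called genes 29 stayed called with season, 106 with the block and 120 with mapped reads. With 2 LT libraries the spread within LT rests largely on the other states, and a unit with few reads needs a large fold to pass.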

Other observations

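Genes of fat synthesis were among the units whose change from LT to IBA differed from that from ET to SA. The units SCD_containing_gene16206 and SCD_like, which the annotation relates to the stearoyl-CoA desaturase that makes monounsaturated fatty acids, averaged 8.71 ± 4.94 and 5.53 ± 3.61 CPM in IBA but 909.7 ± 481 and 243 ± 236 CPM in SA (SD, n = 3 each). In LT they averaged 12.6 ± 13.6 and 9.71 ± 9.36 CPM (SD, n = 2), so that rewarming within the hibernation season was not accompanied by a called change of either (-0.48 and -0.75 on the log2 scale, edgeR adjusted p = 0.647 and 0.531). The unit Aacs_rna21691, named after the enzyme that activates acetoacetate for lipid synthesis, had 7.44 ± 6.15 CPM in LT (SD, n = 2), 8.34 ± 1.35 in IBA and 245 ± 244 in SA (SD, n = 3 each). Fasn had 124 ± 43.2 CPM in IBA and 704 ± 219.8 CPM in SA (SD, n = 3 each), against 466 ± 49 in LT (SD, n = 2) and 474 ± 136 in ET (SD, n = 3). Crot, whose product acts in peroxisomal fatty acid breakdown, went the other way, with 615 ± 71.2 CPM in IBA and 143 ± 58.4 CPM in SA (SD, n = 3 each). The differences between both changes were -7.62, -5.73, -5.36, -2.48 and 2.54 in this order (adjusted p = 0.0144, 0.0491, 0.0467, 0.05 and 0.0467 in edgeR), and these genes were picked after their values were seen.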
